A study of Mus musculus with 8 samples.

Results

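Of 4 dorsomedial hypothalamus libraries made after a short hairpin RNA against Ppp1r17 (group shPpp1r17), 2 still held more than 1000 estimated reads of Ppp1r17 (ENSMUSG00000002930). These are libraries 1 and 4, called the partial knockdown libraries here, and they were compared with the 4 libraries of a hairpin against firefly luciferase (group shfLuc), so that 6 of the 8 libraries of the study entered the comparison. The choice rests on the measured reads of Ppp1r17: the partial libraries held 2246 and 2966 reads, and the closest values under the limit were 53 and 85 reads in libraries 2 and 3, called the deep knockdown libraries. The deep libraries are given side by side and were not tested against the partial ones, since the level of Ppp1r17 separated them.

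All 8 libraries came from mouse tissue of the dorsomedial hypothalamus, named in the titles as LMD samples. The controls carried the hairpin against luciferase, which is not a mouse gene. Whether that hairpin pairs with mouse transcripts over a short stretch was not examined. The labels give no strain, age, sex, vector or promoter for either group. Nothing in the labels ties the libraries to separate animals, and the p-values cover only how the libraries vary, part of which may be technical. Whether the residual Ppp1r17 RNA lay in all cells of a sample or in a share of them cannot be told from bulk tissue, and for every transcript fewer cells of a type and less RNA per cell cannot be told apart.

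Ppp1r17 encodes a small protein, also known as G-substrate, that is phosphorylated by cGMP-dependent protein kinase and then inhibits protein phosphatases 1 and 2A. The dorsomedial hypothalamus takes part in feeding, arousal, body temperature and daily rhythms. A short hairpin RNA is cut into a guide strand that directs the Argonaute complex to messenger RNAs it pairs with, fully or over a short stretch near the start of the guide.

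Before the values, the sequences that the transcripts with lower levels share are shown. Earlier work on these same 8 libraries found the 8 bases CTCTGATA, or either 7-base part of it, CTCTGAT or TCTGATA, more often in the 3' UTRs of genes lower in shPpp1r17, so the matches are a description and no independent evidence. Ppp1r17 itself holds the 8 bases in its coding sequence (exon 4, chr6:56026533-56026540) and in its 3' UTR (exon 5, chr6:56032367-56032374), on the plus strand of GRCm38. The sites read 5' to 3' on the transcript, with the match in capitals and 9 bases on each side:
Ppp1r17 coding: tcttcataaCTCTGATAtggaacaaa
Ppp1r17 3' UTR: ttatttagaCTCTGATAcgttttctt

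Other transcripts called lower in the partial libraries also held the 8-base match in the 3' UTR, among them Fbxl4 (exon 9, chr4:22433932-22433939, plus strand) and Elmo1 (exon 22, chr13:20606152-20606159, plus strand):
Fbxl4: atgtgtaatCTCTGATAttatttccc
Elmo1: ctgctccatCTCTGATAaactaaacc

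Another 6 held a 7-base match in the 3' UTR. The sites lie at chr6:36526346-36526352 in Chrm2 (exon 3), chr11:42628568-42628574 in Gabrb2 (exon 10) and chr5:88640744-88640750 in Rufy3 (exon 13), all on the plus strand. On the minus strand they lie at chr4:41114459-41114465 in Nol6 (exon 26), chr4:56875173-56875179 in Tmem245 (exon 18) and chr13:25253320-25253326 in Nrsn1 (exon 4), which holds another at chr13:25252083-25252089. Of the 10, only Atp2b4 held no match in the searched 3' UTR:
Chrm2: cactgtgtgCTCTGATtcctcctcc
Gabrb2: tacaattgaCTCTGATtggccttta
Rufy3: acatttaagCTCTGATtctatataa
Nol6: tgtcctgaaCTCTGATttaaaatta
Tmem245: attcttaaaTCTGATAacatcctct
Nrsn1: gcctcccctCTCTGATtcacatgca

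The 8 libraries held 23070147 to 33907984 estimated reads. On the first principal component (49.96% of the variance over all 8 libraries) the partial libraries lay at 7.47 and 4.84, between the shfLuc libraries (-23.2 to -7.38) and the deep libraries (25.1 and 25.7). The control library nearest to them, shfLuc 1, also stood apart from the other controls: set against each of them, its counts gave a chi-square of 16.6 to 33.05 per degree of freedom, where shfLuc 2, 3 and 4 gave 7.46 to 11.9 among themselves and pure counting noise gives about 1. Its markers of blood, microglia and plasma cells were the highest of the 4 controls, and counts are therefore also given without it. The partial libraries, set against each other, gave 20.9.

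Ppp1r17 stood at 87.7 and 87.1 CPM (read counts scaled to library size) in the partial libraries, against 146, 161, 161 and 171 CPM in shfLuc 1 to 4. The partial libraries thus held 54.8% and 54.4% of the control mean, and the deep libraries, at 2.07 and 3.09 CPM, held 1.30% and 1.93%. On the TPM scale, which also takes gene length into account, the values were 69.3 and 67.4 in the partial libraries and 118 to 140 in the controls. The fitted log2 change was -0.88 (SE 0.08), which describes the chosen libraries and carries no test.

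Transcripts changed in the partial libraries fell into a few groups. Higher were ribosomal protein and cholesterol synthesis transcripts, and lower were single genes of neuronal signalling and membrane traffic. Immunoglobulin transcripts were also called higher, but most of them passed the expression filter only through the partial libraries. Of 18037 genes tested with edgeR's quasi-likelihood test, 37 passed an adjusted p of 0.05 (0.205%), 26 higher (0.144%) and 11 lower (0.061%), Ppp1r17 among the latter. In the deep libraries the same test against the same 4 controls called 7.27% of 18191 genes higher and 7.5% lower. All 37 called genes had partial values wholly outside the range of the controls. Among all tested genes both partial libraries lay above every control for 11.6% and below every control for 10.5%, so that such a separation alone is common here. Counts of list members above or below every control, given further on, are to be read beside these shares.

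The number of calls depended on single control and knockdown libraries. It was 320 without shfLuc 1, 3 without shfLuc 2, 3 without shfLuc 3 and 2 without shfLuc 4. With a lone knockdown library, assumed to vary like the controls, it was 9 without shPpp1r17 1 and 25 without shPpp1r17 4. The 36 called genes other than Ppp1r17 had the same sign and an unadjusted p under 0.05 in each of these 6 fits. They had been selected on the same libraries, so that agreement says little about their stability.

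The 10 lower transcripts besides Ppp1r17 had a median log2 fold change of -0.69 (-0.90 to -0.44). Chrm2, the M2 muscarinic acetylcholine receptor, stood at 14.9 and 11.8 CPM in the partial libraries, against 23.1, 25.1, 24.6 and 26.2 CPM in shfLuc 1 to 4. It fell by 0.90 on the log2 scale (SE 0.13, adjusted p = 0.0276 in edgeR). The deep libraries held 12.1 and 12.2 CPM of it, inside the range spanned by the partial libraries. Gabrb2, a beta subunit of the GABA-A receptor, stood at 19.1 and 17.7 CPM against 32.2, 29.6, 31.6 and 29.6 CPM in the controls (log2 fold change -0.75, SE 0.11, adjusted p = 0.0276 in edgeR). The deep values of Gabrb2 were 17.2 and 13.3 CPM, below both partial values.

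Nrsn1, a neuronal vesicle membrane protein, was the most abundant of the group. Its partial values were 255 and 255 CPM, against 371, 380, 367 and 368 CPM in shfLuc 1 to 4 and 91.8 and 86.3 CPM in the deep libraries. The partial values lay at 68.6% and 68.7% of the control mean (log2 fold change -0.55, SE 0.07, adjusted p = 0.0216 in edgeR), while the deep libraries lay at 24.7% and 23.2%. For Nrsn1, as for Ppp1r17, the partial libraries sat close together and apart from both other sets. Rufy3, an adaptor protein of vesicle and axonal transport, stood at 225 and 217 CPM against 292 to 311 CPM in the controls (-0.44, SE 0.07) and at 147 and 134 CPM in the deep libraries.

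Elmo1, which activates the small GTPase Rac with DOCK proteins, stood at 79.7 and 65.7 CPM against 104 to 116 CPM in the controls and 36.9 and 33.6 CPM in the deep libraries (partial log2 fold change -0.59, SE 0.10, adjusted p = 0.0430 in edgeR). The 3 sets did not overlap. Fbxl4, a mitochondrial F-box protein, had partial values of 20.8 and 23.8 CPM, control values of 32.5 to 37.6 CPM and deep values of 18.9 and 16.7 CPM.

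Nol6, a nucleolar protein of ribosomal RNA maturation, stood at 24.8 and 22.0 CPM against 37.3 to 43.1 CPM in the controls (-0.78, SE 0.11, adjusted p = 0.0267 in edgeR). Tmem245, a membrane protein, stood at 38.4 and 41.6 CPM against 56.8 to 72.3 CPM (-0.71, SE 0.11). Their deep values were 16.1 and 18.6 CPM for Nol6 and 22.6 and 20.6 CPM for Tmem245, below the partial values in each case. Atp2b4, a calcium pump of the plasma membrane, stood at 33.2 and 36.1 CPM against 47.8 to 54.2 CPM in the controls (-0.57, SE 0.09, adjusted p = 0.0472 in edgeR). Its deep values, 29.7 and 33.3 CPM, overlapped the partial ones.

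The fitted log2 folds of the 10 in the deep libraries had a median of -1.15 (-2.06 to -0.70). The 2 comparisons share their 4 control libraries, so their likeness is no independent support. The gap between the sets differed among the genes: Chrm2 was at -0.90 and -1.03 and Atp2b4 at -0.57 and -0.70 in the partial and the deep libraries, whereas Nrsn1 was at -0.55 and -2.06 and Elmo1 at -0.59 and -1.63. Whether the gap differed between genes was not tested.

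**Figure D1:**
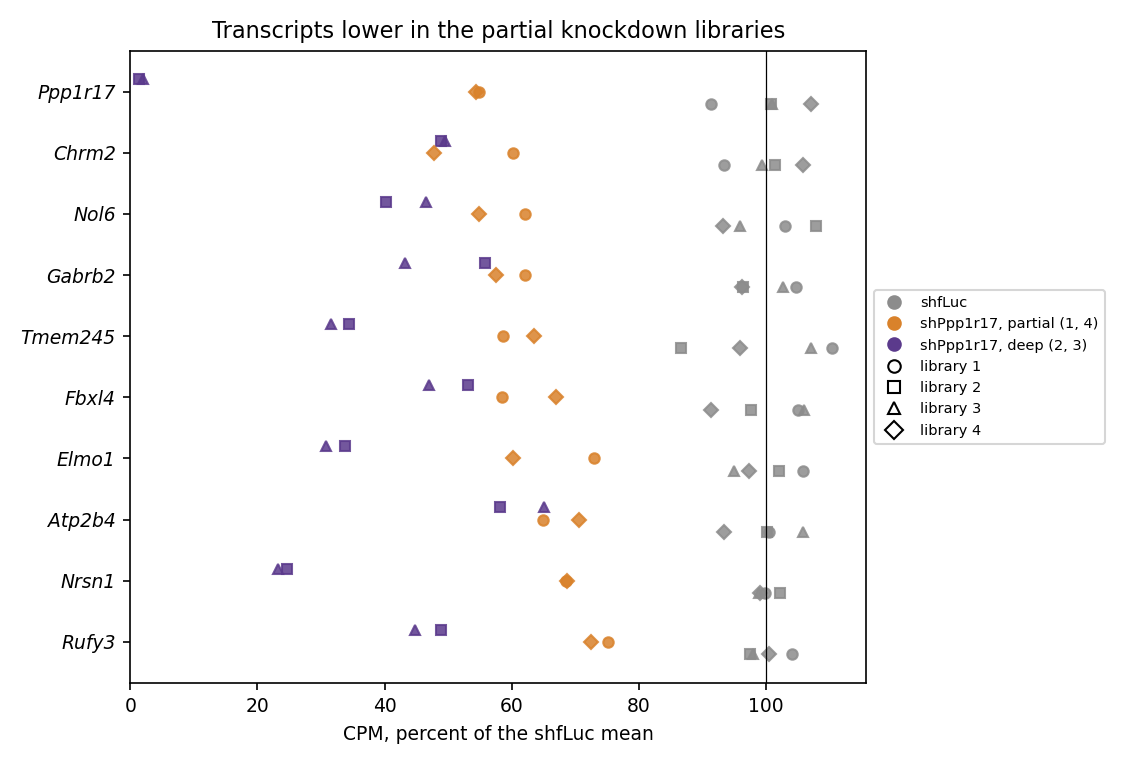
Level of Ppp1r17 and 9 other transcripts called lower in the partial libraries, as CPM in percent of the mean of the 4 shfLuc libraries (x axis, from 0), 1 row per gene and 1 point per library; colours mark shfLuc, partial and deep libraries, and shapes the library number. The partial points of Ppp1r17 lie at 54.8% and 54.4%, far above the deep points at 1.30% and 1.93%, while those of Chrm2 lie on either side of the deep ones and those of Atp2b4 overlap them.

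The sequence match ran through many more transcripts than those called. A 3' UTR of at least 50 bases was available for 14518 of the tested genes (80.5%), and the strand of the transcript alone was searched. Of these, 2711 (18.7%) held a 7-base or 8-base match, and 393 (2.71%) held the 8 bases. Their median log2 fold change in the partial libraries was -0.15 for the 8-base match and -0.09 for the 2318 genes with only a 7-base match, against 0.01 for the 11807 genes without a match. In the deep libraries the 3 medians were -0.29, -0.13 and 0.01, in the same order. The partial libraries were alike: the 8-base genes had a median of -0.13 in library 1 and -0.13 in library 4 relative to the control mean, where the controls ran from -0.02 to 0.03 and the deep libraries were at -0.25 and -0.30.

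Both partial libraries lay below every control for 29.5% of the 8-base genes, for 20.7% of all genes with a match and for 8.87% of those without. Genes with a match had longer 3' UTRs, with a median of 2522 bases against 999. Within 3' UTRs of 2000 to 3000 bases (a restriction added once the values were known), 624 genes with a match had a median of -0.08 and 1489 without had one of -0.01. Of the 10 called lower genes besides Ppp1r17, which chose the libraries, all but Atp2b4 held a match. Of 18 searched genes called higher, 0 held one. The motif was found on these same libraries among genes lower in shPpp1r17. That contrast was thus largely set in advance and is no support. A match is a run of letters and does not show that a guide bound there, and the sequence of the hairpin was not used here.

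**Figure D2:**
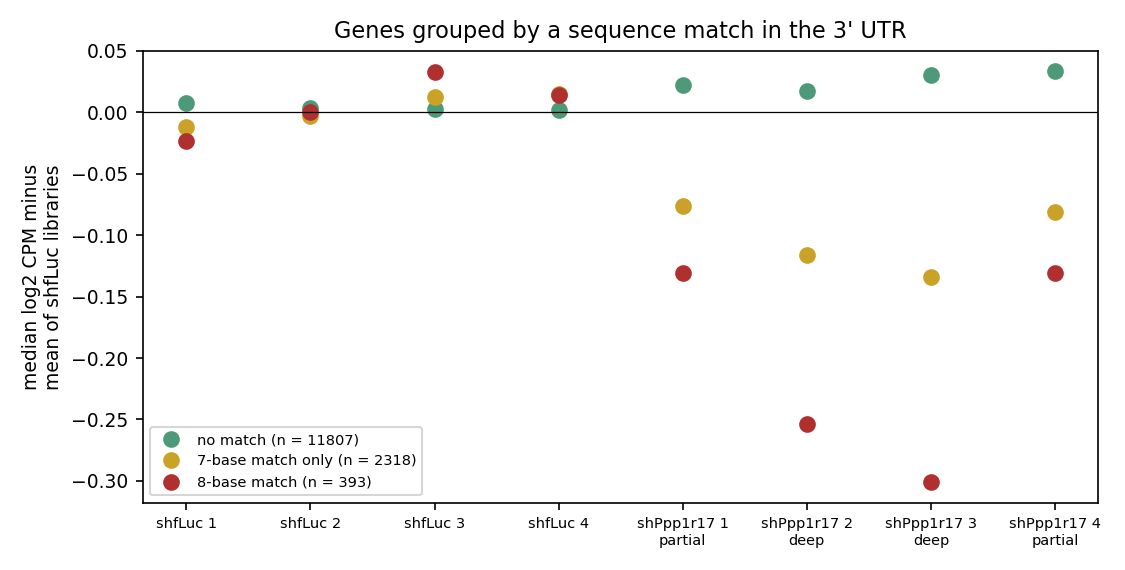
Median over genes of log2 CPM minus the mean of the 4 shfLuc libraries (y axis) in each of the 8 libraries (x axis), for genes with an 8-base match, a 7-base match only or no match in the 3' UTR. The 8-base points lie at -0.13 in both partial libraries, below the controls (-0.02 to 0.03) and above the deep libraries (-0.25 and -0.30).

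Ribosomal protein transcripts were the largest group among those called higher. Cytosolic ribosomal proteins build the subunits of the ribosome and are encoded by many separate genes. Of 48 tested in the list, 9 rose and 0 fell, all 48 were fitted above 0 (0.18 to 0.56 on the log2 scale), and 43 lay above every control in both partial libraries, where 11.6% of all tested genes did so. The median log2 fold change was 0.40, against -0.01 over all tested genes, and the deep libraries had a median of 0.77. Once each library's trend over gene length and GC content was taken out, the partial median was 0.27.

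Rps19, of the small subunit, had the largest change of the list, with 1493 and 1314 CPM in the partial libraries and 959, 932, 952 and 956 CPM in shfLuc 1 to 4. It rose 1.48-fold (log2 fold change 0.56, SE 0.07, adjusted p = 0.0211 in edgeR), and the deep libraries held 2051 and 2152 CPM. The 3 sets were apart, with the partial libraries between the others. Rps3 stood at 1012 and 1035 CPM against 703 to 746 CPM in the controls and 1400 and 1520 CPM in the deep libraries (0.49, SE 0.06). Rpl4, of the large subunit, stood at 1321 and 1364 CPM against 937 to 1013 CPM, with 1839 and 1846 CPM in the deep libraries (0.46, SE 0.06). Rps7 (0.55), Rpl6 (0.55), Rps18 (0.49), Rpl13a (0.47) and Rpl3 (0.41) also passed on the log2 scale.

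Rps27rt (0.55), a copy of Rps27, and the predicted or pseudogene copies Gm15500 (0.50), Rpl10-ps3 (0.50) and Gm4366 (0.46) passed as well. Near-identical copies of ribosomal protein genes can share reads, so the identity of these 4 is uncertain. Summed over 84 ribosomal protein genes, the share of reads was 3.46% and 3.51% in the partial libraries, against 2.96%, 2.57%, 2.47% and 2.49% in shfLuc 1 to 4 and 4.40% and 4.84% in the deep libraries. The partial share was above every control, with an exact two-sided permutation p of 0.133, as low as 2 libraries against 4 can reach. The control with the highest share was shfLuc 1.

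Translation factors had 0 of 24 past the threshold. In both partial libraries 12 lay above every control and 0 below, against 11.6% and 10.5% of all tested genes. The median log2 fold change was 0.18, and 0.34 in the deep libraries. Eef1g, a subunit of the elongation factor complex, stood at 567 and 625 CPM against 425 to 481 CPM (0.42, SE 0.08, adjusted p = 0.0672 in edgeR), and Eif3e, of initiation factor 3, at 240 and 269 CPM against 183 to 206 CPM. Both were above the range of the controls without passing.

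Cholesterol synthesis was the other list with several called members. Cells make cholesterol from acetyl-CoA through mevalonate, farnesyl diphosphate and squalene. Of 22 tested genes of synthesis and uptake 4 rose and 0 fell. Both partial libraries lay above every control for 15 and below for 1, against 11.6% and 10.5% of all tested genes. The median log2 fold change was 0.30 in the partial and 0.86 in the deep libraries. The list medians by library were 0.26 and 0.35 in the partial libraries and -0.06 to 0.04 in the controls.

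Fdps, which makes farnesyl diphosphate, stood at 248 and 262 CPM in the partial libraries, against 194, 179, 169 and 161 CPM in shfLuc 1 to 4 and 409 and 450 CPM in the deep libraries. It rose 1.45-fold (log2 fold change 0.53, SE 0.09, adjusted p = 0.0438 in edgeR). Fdft1, the squalene synthase, stood at 247 and 244 CPM against 164 to 183 CPM (0.49, SE 0.07, adjusted p = 0.0300 in edgeR). The next enzyme, squalene epoxidase (Sqle), stood at 123 and 122 CPM against 86.0 to 95.4 CPM (0.46, SE 0.08), and the sterol oxidase Msmo1 at 261 and 293 CPM against 190 to 202 CPM (0.49, SE 0.07). The deep libraries were higher still for these 3 enzymes, with 387 and 371 CPM of Fdft1, 193 and 170 CPM of Sqle and 404 and 399 CPM of Msmo1.

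Other enzymes were chosen for mention after their values were seen. The sterol dehydrogenase Nsdhl stood at 80.9 and 99.1 CPM against 58.9 to 65.5 CPM (0.53, SE 0.10, adjusted p = 0.0665 in edgeR) and the HMG-CoA synthase Hmgcs1 at 404 and 469 CPM against 333 to 358 CPM (0.33, SE 0.08, adjusted p = 0.118). Neither passed, and both lay above every control.

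**Figure D3:**
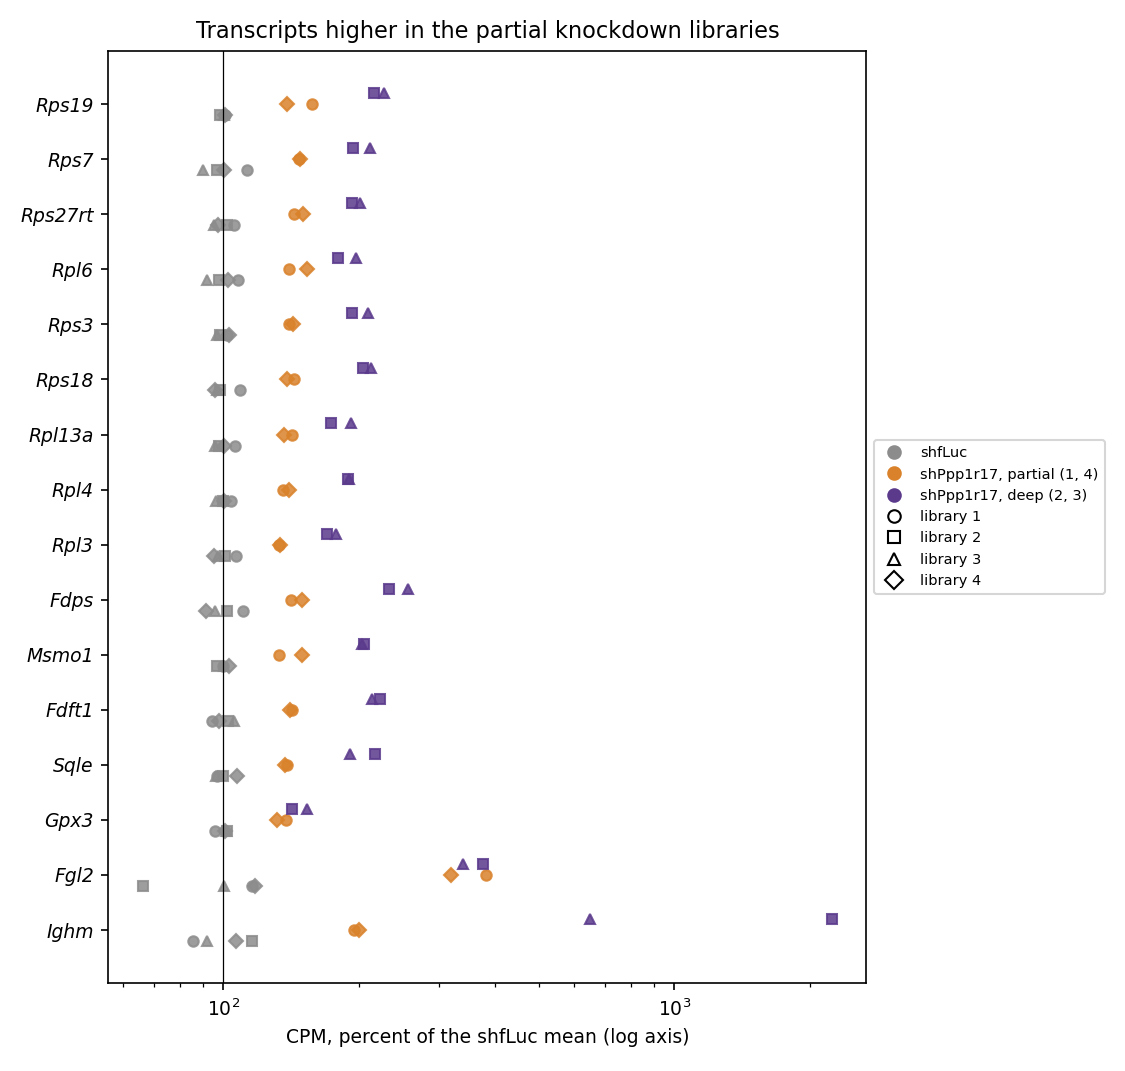
Level of 16 transcripts called higher in the partial libraries, as CPM in percent of the mean of the 4 shfLuc libraries (log axis), 1 row per gene and 1 point per library; colours mark shfLuc, partial and deep libraries, and shapes the library number. The partial points of the ribosomal protein and cholesterol synthesis genes lie between the grey control points near 100% and the deep points, those of Fgl2 lie on either side of the deep points, and the Ighm points of the deep libraries reach 2236%.

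Immunoglobulin transcripts made up 6 of the 26 genes called higher, but only Ighm and Ighg2b passed the expression filter without the partial libraries. Antibody-secreting cells express the heavy chain constant genes Ighm and Ighg2b and rearranged variable segments. Ighm, the heavy chain of IgM, stood at 59.9 and 61.5 CPM in the partial libraries, against 26.4, 35.6, 28.4 and 32.8 CPM in shfLuc 1 to 4 (log2 fold change 0.98, SE 0.12, adjusted p = 0.0211 in edgeR). The partial libraries were close to each other, while the deep libraries held 688 and 200 CPM.

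Ighg2b, an IgG heavy chain, stood at 193 and 36.2 CPM in the partial libraries and at 3.56, 0, 3.56 and 0 CPM in the controls, so its fold rests on few control reads. The kappa segment Igkv1-117 stood at 98.4 and 6.105 CPM against 0, 0, 1.29 and 0 CPM, and the heavy segment Ighv3-6 at 19.9 and 0.998 CPM against 0.215 CPM in shfLuc 1 and 0 in the others. In each of these 3 the partial library 1 was several fold above library 4. Igkv8-16 held 9.80 and 5.61 CPM (251 and 191 reads) and Igkv8-28 4.72 and 1.702 CPM (121 and 58 reads), and both were at 0 in all controls and in both deep libraries. Against a floor of 3 reads over the 4 controls together, their partial means were at least 245-fold and at least 102-fold higher. Igkv8-16, Igkv8-28, Igkv1-117 and Ighv3-6 passed the expression filter only through the partial libraries, where they were high. Their calls and folds are thus no independent support. Variable segments of like sequence can share reads, so single segments are uncertain.

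Summed over 396 immunoglobulin genes, the share of reads was 0.255% and 0.0624% in the partial libraries, against 0.0880%, 0.00554%, 0.0104% and 0.00337% in shfLuc 1 to 4. Library 4 was below shfLuc 1, and the exact two-sided permutation p was 0.267. In the list of lymphocyte and plasma cell markers 2 of 14 tested rose (Ighm and Ighg2b), 5 lay above every control in both partial libraries and 0 below. The summed level of the list was 2090 and 498 CPM in the partial libraries and 44.9 to 685 CPM in the controls. Of its defining markers, Cd79a was at 4.33 and 0.499 CPM, Mzb1 at 10.7 and 1.38 CPM and the J chain Jchain at 278 and 56.4 CPM, with 1.24, 3.82 and 46.3 CPM in shfLuc 1. Mzb1 was at 0 in shfLuc 2 and 4, and Ms4a1, Cd4 and Ighg3 were among the members below the expression filter.

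The remaining named rises were Fgl2, Gpx3 and Zfp935. Fgl2, a prothrombinase of immune and endothelial cells, stood at 6.36 and 5.34 CPM in the partial libraries against 1.93, 1.11, 1.67 and 1.96 CPM in the controls. It rose 3.51-fold (log2 fold change 1.80, SE 0.29, adjusted p = 0.0390 in edgeR), and the deep values, 6.29 and 5.68 CPM, lay inside the span of the partial ones. Gpx3, the secreted glutathione peroxidase, stood at 1012 and 966 CPM against 703 to 748 CPM (0.43, SE 0.06, adjusted p = 0.0300) and at 1045 and 1125 CPM in the deep libraries. Zfp935, a zinc finger protein, held 45 and 95 reads (1.76 and 2.79 CPM) in the partial libraries and 0 in all controls and both deep libraries, at least 72.3-fold over the floor of 3 reads. Zfp935 too passed the expression filter only through the partial libraries, so its call is no independent support.

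In the lists of blood and glial markers 0 genes passed. Blood markers lay above the controls and the glial lists differed among themselves, and their part in the changes above was not tested. The summed level of the blood list was 792 and 637 CPM in the partial libraries against 328 to 563 CPM in the controls. Of its 5 tested members 0 passed and 5 lay above every control in both partial libraries. The hemoglobin gene Hbb-bs stood at 269 and 226.7 CPM against 114 to 192 CPM (0.74, SE 0.16, adjusted p = 0.106 in edgeR). Hemoglobin took 0.0779% and 0.0634% of reads against 0.0322% to 0.0564% (exact two-sided permutation p = 0.133, the smallest possible).

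Microglia and macrophage markers had 0 of 19 past the threshold, with 8 above and 1 below every control (11.6% and 10.5% of all tested genes). Their median log2 fold change was 0.40 (0.76 in the deep libraries). The summed level was 847 and 703 CPM against 463 to 703 CPM, and the list median of library 4 (0.36) lay next to that of shfLuc 1 (0.34). The complement gene C1qa stood at 27.7 and 22.2 CPM against 13.4 to 19.9 CPM (0.70, SE 0.17, adjusted p = 0.122 in edgeR), and the macrophage lysozyme Lyz2 at 36.8 and 27.1 CPM against 6.92 to 22.0 CPM. Both lay above the controls and did not pass.

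In the related list of disease-associated microglia 0 of 17 passed, with 8 above every control, 0 below and a median of 0.37. On the log2 scale 14 were fitted above 0 and 3 below (-0.27 to 3.82). The summed level, 2490 and 2369 CPM, lay inside the range of the controls (2301 to 2685 CPM). Clec7a, a receptor for fungal glucans, was at 4.92 and 3.14 CPM against 0.595 to 1.502 CPM (adjusted p = 0.101 in edgeR), and the galectin Lgals3 at 2.54 and 3.02 CPM against 0.301 to 1.16 CPM. Antigen presentation and complement genes (0 of 22 called, 4 above, 0 below) had a median of 0.56, and type I interferon response genes (0 of 22, 4 above, 0 below) one of 0.37. In both lists the median of library 4 (0.40 and 0.31) was under that of shfLuc 1 (0.68 and 0.41), so the groups overlapped.

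Of 15 reactive astrocyte genes tested 0 were called, and 3 lay above and 0 below every control. On the log2 scale 11 were fitted above 0 and 4 below (-2.12 to 1.49). The median in the partial libraries was 0.18, against 1.43 in the deep libraries. That median rested on single libraries, at 0.04 without shPpp1r17 1, 0.10 without shfLuc 2 and 0.75 without shfLuc 1. Gfap, the intermediate filament of astrocytes, stood at 119 and 110 CPM in the partial libraries, 40.7 to 85.3 CPM in the controls and 341 and 245 CPM in the deep libraries (partial log2 fold change 0.99, SE 0.21, adjusted p = 0.103 in edgeR). It was above every control without passing. Vim, another intermediate filament, stood at 25.0 and 24.0 CPM against 12.5 to 19.4 CPM.

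Mature oligodendrocyte genes (0 of 15 called, 3 above, 0 below) had a median of 0.06 in the partial and 0.90 in the deep libraries, and their summed level, 1678 and 1528 CPM, overlapped the controls (1502 to 1566 CPM). The tight junction gene Cldn11 was at 28.8 and 24.9 CPM against 17.7 to 20.2 CPM and 46.2 and 51.9 CPM in the deep libraries (0.51, SE 0.12, adjusted p = 0.109). Endothelial markers (0 of 12 called, 1 above, 1 below) had a median of -0.08, and 0.43 in the deep libraries. For comparison, 11.6% of all tested genes lay above every control and 10.5% below. The median of ependyma, tanycytes and choroid plexus (0 of 12 called) was 0.50, with 1.03 in library 1 and 0.07 in library 4. For mural cells and fibroblasts (0 of 14 called) the median was 0.13, and -0.06 without library 4. Oligodendrocyte precursors (0 of 12 called) had a median of 0.04, whose sign also changed between settings.

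**Figure D4:**
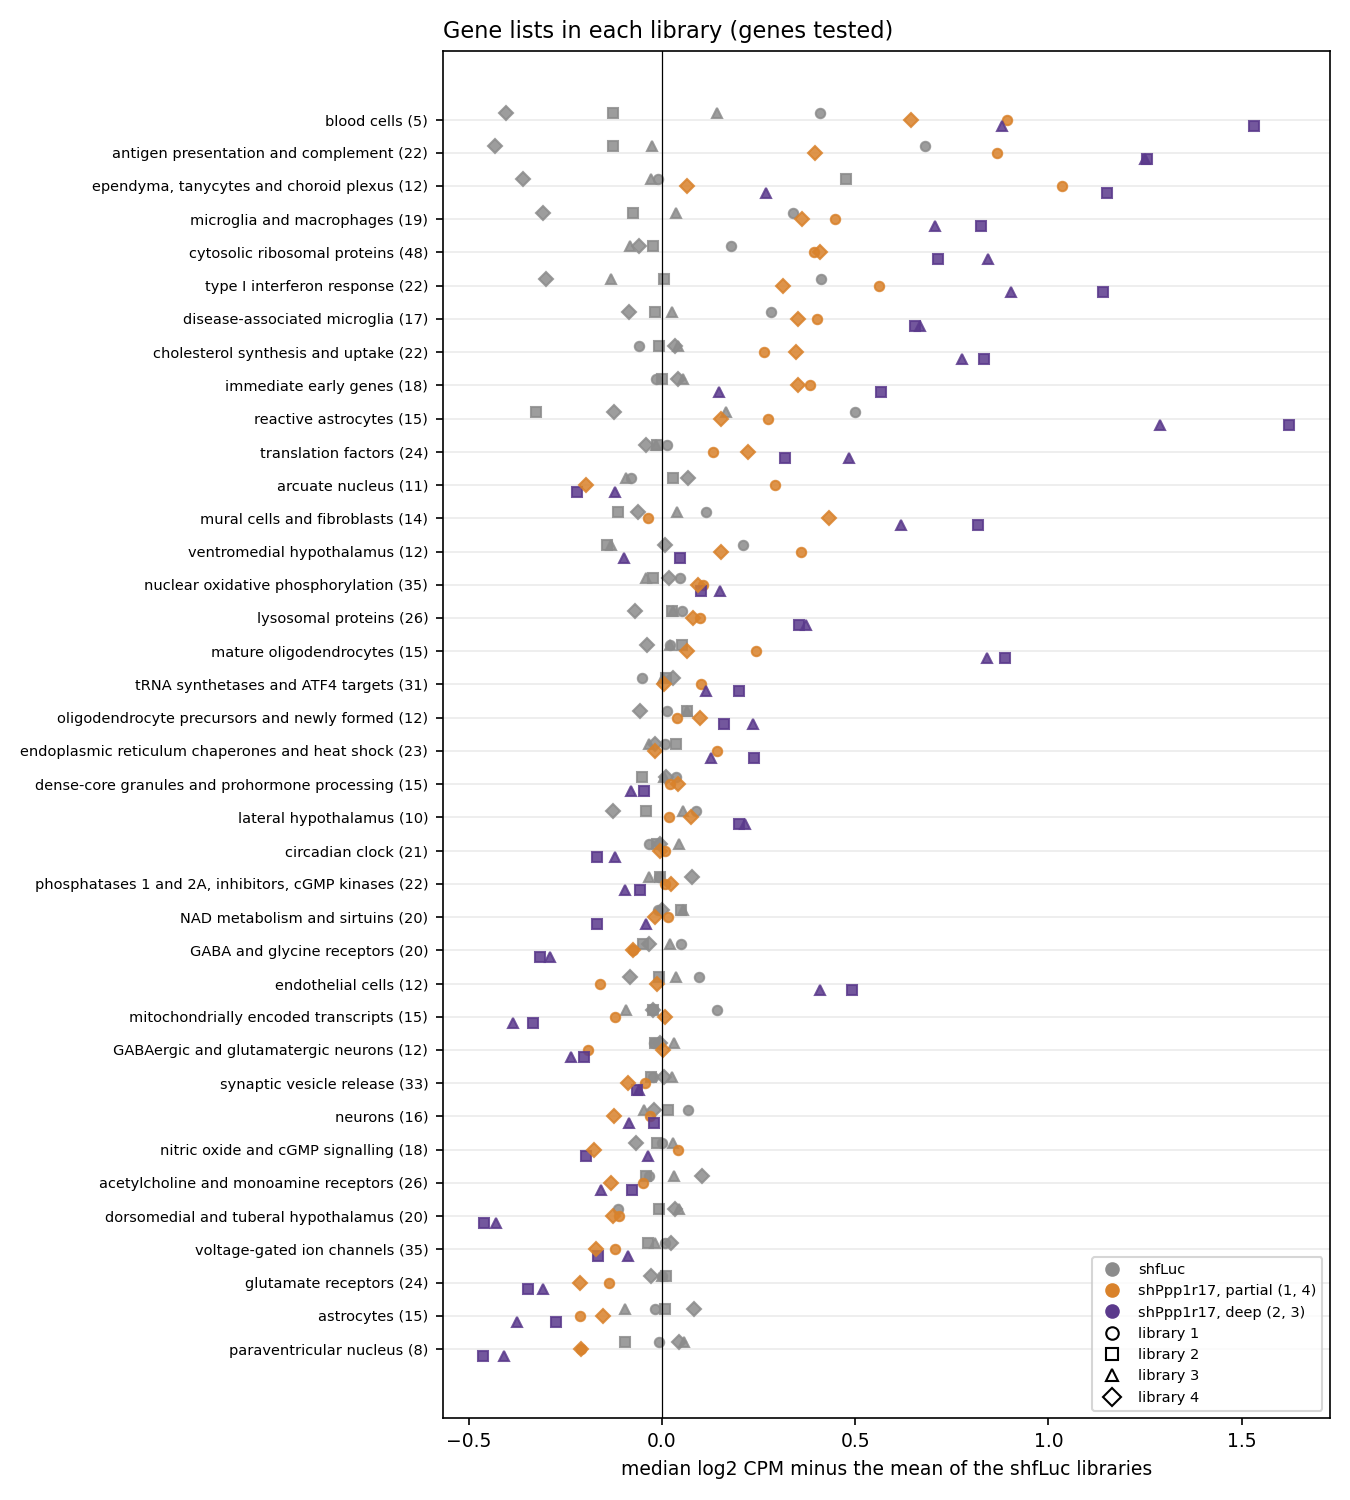
Median of each of 38 gene lists in each library, as log2 CPM minus the mean of the 4 shfLuc libraries (x axis), with the number of genes tested in parentheses; colours mark shfLuc, partial and deep libraries, and shapes the library number. The list of lymphocytes and plasma cells, which runs past this axis, is left out, and the dorsomedial list includes Ppp1r17. Ribosomal protein and cholesterol genes have both partial points right of all controls, whereas the interferon and the antigen presentation points of library 4 lie left of shfLuc 1.

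The list of 16 pan-neuronal genes had 0 past the threshold, with 2 above and 6 below every control (11.6% and 10.5% of all tested genes). Its median log2 fold change was -0.10 and its summed level 7724 and 7824 CPM against 7679 to 7941 CPM. Syt1, the calcium sensor of synaptic vesicles, stood at 468 and 452 CPM against 524 to 574 CPM (-0.26, SE 0.07, adjusted p = 0.153 in edgeR). The separate list of GABAergic and glutamatergic markers had 0 of 12 past the threshold, 0 above and 3 below every control, with 4 fitted above 0 and 8 below (-0.52 to 0.82). Its median was -0.09, at -0.0040 without shPpp1r17 1 and -0.19 without shPpp1r17 4, and its summed level was 1202 and 1299 CPM against 1385 to 1442 CPM. The enzyme Gad2, which makes GABA, stood at 316 and 331 CPM against 387 to 395 CPM (adjusted p = 0.122), and the vesicular glutamate transporter Slc17a6 at 182 and 162 CPM against 200 to 216 CPM (adjusted p = 0.160). Syt1, Gad2 and Slc17a6 lay below the controls and did not pass.

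Astrocyte markers (0 of 15 called, 1 above, 6 below) had a median of -0.22 (-0.35 in the deep libraries). All tested genes gave 11.6% above and 10.5% below. Agt, angiotensinogen, which hypothalamic astrocytes express, stood at 222 and 224 CPM against 266 to 297 CPM (-0.35, SE 0.08, adjusted p = 0.101), and the bicarbonate transporter Slc4a4 at 119 and 118 CPM against 135 to 149 CPM.

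Receptor and channel genes had medians below 0 and few calls. Glutamate receptors (0 of 24 called, 1 above and 9 below every control) had a median log2 fold change of -0.21, with -0.14 and -0.21 in the partial libraries and -0.03 to 0.01 in the controls. Below every control lay 10.5% of all tested genes. The AMPA receptor subunit Gria3 stood at 58.8 and 58.2 CPM against 70.3 to 74.5 CPM (-0.32, SE 0.08, adjusted p = 0.134 in edgeR), below every control without passing. In GABA and glycine receptors 1 of 20 fell, Gabrb2, with 2 above, 5 below and a median of -0.07.

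In acetylcholine and monoamine receptors 1 of 26 fell, Chrm2, with 1 above, 5 below and a median of -0.12. Voltage-gated ion channels (0 of 35 called, 1 above, 11 below) had a median of -0.18, and -0.10 in the deep libraries. The sodium channel Scn1a stood at 94.1 and 82.9 CPM against 105 to 123 CPM (-0.36, SE 0.09, adjusted p = 0.143), while the deep libraries, at 110 and 101 CPM, were above the partial ones. Synaptic vesicle release genes (0 of 33 called, 4 above, 7 below) had a median of -0.09. Pclo, a scaffold of the active zone, stood at 132 and 123 CPM against 162 to 177 CPM (-0.39, SE 0.08, adjusted p = 0.0881), with 125 and 125 CPM in the deep libraries.

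These 5 medians came closer to 0 once each library's trend over gene length and GC content was taken out. They were then -0.11 for glutamate receptors, -0.01 for GABA and glycine receptors, -0.05 for acetylcholine and monoamine receptors, -0.06 for voltage-gated channels and -0.02 for synaptic vesicle release.

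Genes around the known action of Ppp1r17 were measured in 2 lists. The phosphatase 1 and 2A subunits, their inhibitors and the cGMP kinases had 0 of 22 past the threshold, 6 above and 1 below every control and a median of -0.02, whose sign changed without shfLuc 4 and without either partial library. Ppp2ca, a catalytic subunit of phosphatase 2A, stood at 161 and 188 CPM against 144 to 157 CPM (0.23, SE 0.08, adjusted p = 0.289 in edgeR), and Ppp1cc, one of phosphatase 1, at 46.7 and 50.6 CPM against 34.9 to 45.6 CPM. The cGMP kinase Prkg2 stood at 9.72 and 15.4 CPM against 15.2 to 18.1 CPM, with 8.52 and 6.66 CPM in the deep libraries, and Prkg1 at 28.5 and 23.1 CPM against 23.4 to 30.1 CPM. Nitric oxide and cGMP signalling genes (0 of 18 called, 2 above, 3 below) had a median of -0.10. Beside the counts of both lists, 11.6% of all tested genes lay above every control and 10.5% below. Cngb1, a subunit of cyclic nucleotide-gated channels, stood at 15.4 and 19.4 CPM against 9.49 to 11.6 CPM (0.78, SE 0.15, adjusted p = 0.0881) and at 20.4 and 19.8 CPM in the deep libraries.

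Among the dorsomedial and tuberal markers other than Ppp1r17, which had chosen the libraries, 0 of 19 passed, 1 lay above and 3 below every control, and the median was -0.12, against -0.47 in the deep libraries. Without shfLuc 2 the partial median was -0.01. Brs3, the bombesin-like receptor of dorsomedial neurons, stood at 34.1 and 29.4 CPM against 39.1, 43.1, 51.3 and 46.0 CPM (-0.50, SE 0.12, adjusted p = 0.122 in edgeR), and at 7.27 and 8.45 CPM in the deep libraries. Grp, gastrin-releasing peptide, was at 26.2 and 30.4 CPM, with library 1 inside and library 4 just above the range of the controls (26.1 to 29.9 CPM), and at 14.1 and 13.2 CPM in the deep libraries. The neuropeptide galanin (Gal) was at 1254 and 1320 CPM against 1306 to 1612 CPM, overlapping the controls. Nts, neurotensin, stood at 42.8 and 49.95 CPM against 30.8 to 37.5 CPM (0.48, SE 0.11, adjusted p = 0.112). Markers of the labelled region were thus detected in all 8 libraries.

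Markers of neighbouring regions (10 tested for the lateral hypothalamus, 11 arcuate, 12 ventromedial and 8 paraventricular) gave 0 called genes. Orexin (Hcrt) of the lateral hypothalamus was at 247 and 200 CPM against 298 to 415 CPM (-0.67, SE 0.14, adjusted p = 0.101) with a list median of 0.00, whose sign changed in 7 of 17 alternatives. Cartpt, listed for both the arcuate nucleus and the lateral hypothalamus, was at 263 and 265 CPM against 188 to 217 CPM (0.38, SE 0.08, adjusted p = 0.101). The arcuate median of 0.14 turned to -0.20 without library 1. The ventromedial median was 0.11, at 0.33 without shPpp1r17 4 and 0.17 to 0.20 without shfLuc 1, 3 or 4, and the paraventricular one -0.22. Oxt, which encodes oxytocin, ran from 0.429 to 7.56 CPM among the controls and stood at 0.625 and 0.205 CPM in the partial libraries, so the groups overlapped.

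Immediate early genes are transcribed soon after a neuron is stimulated. Of 18 tested 0 passed the threshold, and 9 lay above every control and 0 below, against 11.6% and 10.5% of all tested genes. The median log2 fold change was 0.23, with 0.31 in the deep libraries. Fos stood at 21.1 and 28.6 CPM in the partial libraries, against 6.996, 10.1, 14.3 and 12.4 CPM in shfLuc 1 to 4 and 22.0 and 18.0 CPM in the deep libraries (partial log2 fold change 1.18, SE 0.23, adjusted p = 0.0843 in edgeR). Egr1 stood at 8.005 and 8.66 CPM against 3.30 to 5.61 CPM (0.96, SE 0.23, adjusted p = 0.122). For both genes the partial and the deep values lay together above the controls, and neither passed.

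Other lists had no called member, and medians from -0.08 to 0.09. These were nuclear oxidative phosphorylation (35 tested, 0.09, which turned to -0.02 with the length and GC trend removed), mitochondrially encoded transcripts (15 tested, -0.08, which turned to 0.01 without library 1) and lysosomal proteins (26 tested, 0.08). The circadian clock (21 tested, -0.00), NAD metabolism (20 tested, -0.03) and dense-core granules (15 tested, 0.02) were closer to 0, as were tRNA synthetases with ATF4 targets (31 tested, 0.05) and chaperones (23 tested, 0.04). The sign of these last 5 medians changed under at least 1 other setting. Nuclear oxidative phosphorylation had 29 members fitted above 0 and 6 below. It had 16 members above every control in both partial libraries and 2 below. Lysosomal proteins had 10 and 1, tRNA synthetases with ATF4 targets 8 and 2, and chaperones 5 and 1. NAD metabolism had 4 and 4, dense-core granules 1 and 2, the clock 0 and 1 and mitochondrial transcripts 0 and 4. The shares over all tested genes were 11.6% above and 10.5% below. The mitochondrial share of reads was 5.75% and 6.02% in the partial libraries against 6.001% to 7.16% (exact two-sided permutation p = 0.267). Wars, the tryptophanyl-tRNA synthetase, was at 67.9 and 53.1 CPM against 85.02 to 101 CPM (-0.64, SE 0.11, adjusted p = 0.0588 in edgeR). Nnmt, which consumes nicotinamide, was at 4.45 and 5.43 CPM against 2.15 to 3.07 CPM (adjusted p = 0.163) and at 1.56 and 2.51 CPM in the deep libraries, so that the partial values alone lay above the controls.

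The spread between the partial libraries was widest in immunoglobulin segments and copies of ribosomal genes. Of the 12 genes that differed most between them, Ighg1 was at 33.2 CPM in library 1 and 0 in library 4, Ighg2c at 407 and 22.95 CPM and Igkv12-41 at 0 and 57.6 CPM. The ribosomal copy Rps12l1 was at 22.96 and 0 CPM, and its relative Rps12-ps3 at 4.92 and 33.1 CPM. Those copies varied in opposite directions, and near-identical copies can share reads. The choroid plexus transcript Ttr was at 17.8 CPM in library 1, 1.82 CPM in library 4 and 2.27 to 2.79 CPM in the controls. Of the 10 lower transcripts besides Ppp1r17, none differed between the partial libraries by more than Chrm2, at 0.33 on the log2 scale.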

How the data were processed

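Tissue RNA was extracted with a kit meant for small samples and sequenced from SMARTer libraries, per the labels. Each deposited table lists, per the file headers, expected counts of reads and TPM for 55487 Ensembl gene identifiers, of which 55141 had a symbol. The tools named in the submitters' processing notes are bcl2fastq, DRAGEN, edgeR and limma; the sources used here give no build or aligner settings. The authors' expected counts, fractional for up to 10.1% of genes in a library, were rounded. The deposited TPM served in alternatives.

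Genes were tested with edgeR's quasi-likelihood method (4.0.16, R 4.3.3) on 6 libraries, using TMM factors, the filterByExpr minimum counts (10, total 15), group as the single term and Benjamini-Hochberg adjustment over 18037 genes. Standard errors derive from the fold change and F statistic. CPM values use TMM factors over all 8 libraries, and list medians per library add a prior count of 2. Reads carry no molecular identifiers, so floors cover counting error only. The scripts were checked on simulated data. The 39 lists hold 766 symbols, of which 740 were tested; members and lists were chosen with earlier results of these data known.

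Genes named were Ppp1r17, up to 12 rises and 12 falls among called genes whose average log2 CPM was at least 1 (predicted genes and pseudogenes aside), up to 3 members with the smallest p from each list, and the 6 genes higher in each partial library by the widest margin (average log2 CPM at least 3). Other called genes, and Nsdhl, Hmgcs1, Prkg1, Prkg2, Grp, Gal, Cd79a, Mzb1, Supt16, Snhg5 and Prg2, were named after their values were seen. Certain genes picked this way are left out of the text. Motif sites come from GENCODE M21 on GRCm38, with the longest 3' UTR of each gene. Alternatives were RLE factors, library totals, no filter or one of 50 counts, DESeq2 1.42.0, limma 3.58.1 with voom or on log2(TPM + 1) and log2(TPM + 0.1), a fit of 8 libraries, a replicate block, a length and GC correction (values for 99.9% of genes), and each library left out.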

Additional observations from a re-analysis of the deposited data

Results flagged for a closer look

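Of 284 groups of 4 libraries examined, 16 had a library far from the other 3; chance flags about 1 in 20 groups. Among the genes called in the partial libraries, Ighv3-6 stood out in shPpp1r17 1 (19.9 CPM, where the others had a median of 0.998) and in shfLuc 1 (0.215 CPM, others 0), and Igkv1-117 in shfLuc 3 (1.29 CPM, others 0). Chrm2 was higher in the partial library shPpp1r17 1 (14.9 CPM) than in the other shPpp1r17 libraries (median 12.1 CPM), and Gpx3 was lower in shfLuc 1 (703 CPM) than in the other controls (median 746 CPM).

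The library shfLuc 1 also stood above the other controls in C1qa (19.9 CPM against a median of 13.8), Jchain (46.3 against 1.53), Gda, the guanine deaminase (49.6 against 34.9), and Prg2, an eosinophil granule protein (0.515 against 0). Other controls stood apart in Slc4a4 (shfLuc 3, 135 CPM against 149), Cngb1 (shfLuc 4, 11.6 against 9.65) and Pclo (shfLuc 2, 177 against 163). The deep libraries stood apart in Slc4a4 (shPpp1r17 3, 108 CPM against 119), Oxt (shPpp1r17 3, 6.04 against 0.625), Rarres2, a secreted chemoattractant (shPpp1r17 2, 46.7 against 33.6), and Cpe, the carboxypeptidase of prohormones (shPpp1r17 2, 2677 against 2427).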

How the results depend on the processing

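The count of called genes moved with the setting while the sign of the 36 called genes besides Ppp1r17 did not, wherever they were tested (34 of them with the filter of 50 counts). Against 37 calls (26 higher, 11 lower, 70.3% higher), there were 703 without an expression filter (411 and 292, 58.5% higher), 401 with DESeq2 (214 and 187, 53.4%), 56 with limma voom (39 and 17), 75 with 8 libraries in the fit (57 and 18) and 55 with the filter of 50 counts (38 and 17). There were 6 on log2(TPM + 1) (4 and 2), 15 on log2(TPM + 0.1) (9 and 6, 60.0% higher) and 21 after correction for gene length and GC content (14 and 7). RLE factors gave 37 and library totals 32. With 1 library left out, the total ran from 2 to 320, the higher calls from 1 to 218 and the lower ones from 1 to 102. The cause of these moves was not tested.

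With the replicate block, which leaves 1 residual degree of freedom, 8 genes passed (6 higher, 2 lower). The labels do not say whether the numbers pair the libraries. Libraries of one number deviated from their group means together with correlations of 0.07, -0.05, 0.03 and 0.19. Such low values cannot exclude pairing, since the shPpp1r17 deviations also hold the gap between partial and deep libraries. Of 2382 single gene values, 1936 kept their side of the threshold, 289 lost a call, 156 gained one and 1 reversed, Ttr, at -0.46 without shPpp1r17 1 and 2.83 without shPpp1r17 4. Each of the 36 lost its call under 5 to 10 alternatives, except Igkv8-16, which kept it in all 17. Igkv8-16 was at 0 in all controls and passed the expression filter only through the partial libraries, so its kept call says little about stability. Shares of reads kept their direction. The median of genes with the 3' UTR match, -0.09, was -0.1451 over 8-base matches and -0.0833 within 3' UTRs of 2000 to 3000 bases. With 2 libraries on the knockdown side, genes that differ by less than about the spread between libraries were not detectable. Other list medians also moved by over 1.5 times with 1 library left out, among them the following. Without shPpp1r17 1 they were 0.28 for antigen presentation, 0.04 for ependyma, 0.38 for mural cells, -0.03 for endothelial cells and -0.20 for nitric oxide signalling. Without shPpp1r17 4 they were 0.95 for ependyma, 0.22 for mature oligodendrocytes, -0.17 for endothelial cells, 0.38 for immediate early genes, -0.02 for nitric oxide signalling, 0.28 for the arcuate nucleus, -0.04 for pan-neuronal genes and -0.14 for glutamate receptors. The interferon median was 0.59 without shfLuc 1 and 0.20 without shfLuc 4. For lymphocytes and plasma cells the median of 2.49 was 0.70 without shPpp1r17 1 and 5.54 without shfLuc 1. Acetylcholine and monoamine receptors were at -0.05 without shPpp1r17 4 and -0.06 without shfLuc 3. Synaptic vesicle release was at -0.05 without shPpp1r17 4, and voltage-gated channels at -0.12 without shfLuc 1.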

Other observations

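Some transcripts just short of the threshold were chosen after their values were seen. Supt16, a subunit of the FACT histone chaperone, stood at 66.3 and 43.3 CPM in the partial libraries against 88.8 to 109 CPM in the controls and 53.5 and 55.6 CPM in the deep libraries (log2 fold change -0.86, SE 0.16, adjusted p = 0.0665 in edgeR), and its 3' UTR held a match to the motif. Snhg5, a host gene of small nucleolar RNAs, stood at 33.9 and 30.7 CPM against 19.5 to 22.4 CPM (0.60, SE 0.11, adjusted p = 0.0588 in edgeR), with 40.2 and 38.9 CPM in the deep libraries. Prg2 was at 5.82 and 2.67 CPM against 0.515, 0, 0.043 and 0 CPM (adjusted p = 0.0665 in edgeR). Prg2 passed the expression filter only through the partial libraries, where it was high, so its p is no independent support. For Prg2 and Snhg5 both partial values lay above every control, and for Supt16 below.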
